A study of Homo sapiens with 2 samples.

Results

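The regions described here are the chromosome domains longer than 3 Mb that Hi-C assigned in HepG2, a much used human cell line grown from a liver tumour. Hi-C reads no RNA, so the cell type could not be checked against marker genes. They were chosen by length alone: every entry of either domain list whose end minus its start exceeded 3 Mb was a member. Of 5203 entries in the lists, 374 met the rule, 181 of 2679 in the mock list and 193 of 2524 in the PA+OA list. Entries of zero length were left out of all comparisons, which left 2543 mock and 2416 PA+OA domains. Mock cells received DMSO diluted 1 to 1000, and PA+OA cells received 120 µM palmitic acid with 240 µM oleic acid, both for 48 h in medium given as 1% fatty acid-free BSA, although the labels do not settle whether the mock medium held BSA. Each group is 1 library of 1 cell line, so no difference between the groups has a replicate check, and no test of the treatment was possible. Intervals below are 95% intervals over domains, genes or sequence within a list, and cover counting error only.

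Hi-C joins pieces of DNA that lie close together in the nucleus, and a topologically associating domain is a stretch of chromosome whose parts contact each other more than they contact the neighbouring stretches. Domain borders are often sites bound by CTCF and cohesin or lie near active genes, and gene deserts, in which protein-coding genes are far apart, often have few of them. Centromeres and the short arms of the acrocentric chromosomes consist of repeats to which short reads cannot be placed with certainty. The lists give positions on a grid of 40 kb in build hg38, and genes and sequences came from RefSeq tables of assembly GRCh38.p14.

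Long domains held both protein-coding and small RNA genes, and the sequences of a few of them show what lies inside. The longest domain with equal edges in both lists covered 13:45000001-76480000, 31.48 Mb, and the domain that followed it on chromosome 13 carried the miR-17-92 cluster, whose miRNAs promote cell proliferation. In the mock list that cluster lay in a domain of 21 Mb (76480001 to 97480000), and in the PA+OA list in one of 35.40 Mb (76480001 to 111880000), the longest of all. A second cluster, let-7a-1, let-7f-1 and let-7d on chromosome 9, encodes miRNAs known to restrain growth genes, and lay in domains of 8.68 Mb and 8.64 Mb. The mature sequences are printed 5′ to 3′ with the seed, bases 2 to 8, in capitals, and ordered by seed.
hsa-miR-17-5p: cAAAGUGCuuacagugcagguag
hsa-miR-20a-5p: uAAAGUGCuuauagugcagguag
hsa-miR-18a-5p: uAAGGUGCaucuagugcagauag
hsa-miR-19a-3p: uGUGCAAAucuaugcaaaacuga
hsa-miR-19b-3p: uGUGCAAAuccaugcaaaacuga
hsa-miR-92a-3p: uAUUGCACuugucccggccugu
hsa-let-7a-5p: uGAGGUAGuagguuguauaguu
hsa-let-7f-5p: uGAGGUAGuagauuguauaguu
hsa-let-7d-5p: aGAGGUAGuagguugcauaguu
The chromosome 13 cluster held 4 seeds, AAAGUGC in miR-17-5p and miR-20a-5p, AAGGUGC in miR-18a-5p, GUGCAAA in miR-19a-3p and miR-19b-3p, and AUUGCAC in miR-92a-3p. The 3 let-7 miRNAs of chromosome 9 shared the seed GAGGUAG.

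Promoters inside long domains spanned the range from CpG-rich to CpG-poor, as 5 examples show. The 250 bases before the listed start of each gene are printed on the gene's strand, with every CG dinucleotide in capitals. PCDH9 encodes a protocadherin of neurons, ACADM the medium-chain acyl-CoA dehydrogenase of fatty acid oxidation, PLIN2 a coat protein of lipid droplets, SREBF2 a transcription factor of cholesterol synthesis, and CD36 a fatty acid receptor and transporter.
PCDH9: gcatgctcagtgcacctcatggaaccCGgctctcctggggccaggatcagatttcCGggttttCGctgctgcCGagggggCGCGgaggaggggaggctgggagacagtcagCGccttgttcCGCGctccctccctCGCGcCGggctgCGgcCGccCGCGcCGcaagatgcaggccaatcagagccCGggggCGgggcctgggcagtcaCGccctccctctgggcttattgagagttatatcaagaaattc
ACADM: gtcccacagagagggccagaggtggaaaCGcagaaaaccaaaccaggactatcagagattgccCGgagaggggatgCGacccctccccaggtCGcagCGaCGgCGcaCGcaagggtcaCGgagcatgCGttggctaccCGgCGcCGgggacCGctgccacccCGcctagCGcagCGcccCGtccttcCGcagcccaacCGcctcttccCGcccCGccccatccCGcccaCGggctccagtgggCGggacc
PLIN2: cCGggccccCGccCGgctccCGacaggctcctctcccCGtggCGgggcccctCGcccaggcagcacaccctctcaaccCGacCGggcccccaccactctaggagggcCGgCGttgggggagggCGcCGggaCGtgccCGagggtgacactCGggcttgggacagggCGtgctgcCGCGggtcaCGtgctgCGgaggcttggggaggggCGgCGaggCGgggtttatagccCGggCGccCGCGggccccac
SREBF2: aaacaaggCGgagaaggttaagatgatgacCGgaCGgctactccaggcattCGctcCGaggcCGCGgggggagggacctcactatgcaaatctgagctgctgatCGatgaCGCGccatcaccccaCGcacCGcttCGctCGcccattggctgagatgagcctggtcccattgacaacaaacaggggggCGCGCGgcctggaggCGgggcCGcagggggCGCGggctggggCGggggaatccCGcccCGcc
CD36: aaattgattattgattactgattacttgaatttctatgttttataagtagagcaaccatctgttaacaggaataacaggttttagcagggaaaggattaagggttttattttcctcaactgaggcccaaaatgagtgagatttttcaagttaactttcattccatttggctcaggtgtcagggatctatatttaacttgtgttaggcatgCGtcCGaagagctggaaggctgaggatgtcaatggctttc
The windows are 13:67230337-67230586 (minus strand) for PCDH9, 1:75724459-75724708 (plus) for ACADM, 9:19127493-19127742 (minus) for PLIN2, 22:41832855-41833104 (plus) for SREBF2 and 7:80601957-80602206 (plus) for CD36. They held 20, 25, 28, 24 and 2 CG dinucleotides in that order. Their GC content was 66.8%, 70.8%, 78.0%, 67.2% and 37.2%. PCDH9, ACADM, PLIN2 and CD36 lay in long domains of both lists, and SREBF2 in a long domain of the PA+OA list only.

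Long domains were few but covered much of the genome. They made up 1067.28 Mb or 35.4% of the covered length in the mock list and 1225.00 Mb or 40.8% in the PA+OA list. The median long domain measured 4.12 Mb (quartiles 3.48 and 6.12) in mock and 4.20 Mb (3.48 and 6.48) in PA+OA. Domains of 3 to 5 Mb numbered 120 in each list, those of 5 to 10 Mb 40 and 51, and those above 10 Mb 21 and 22. The difference in total length between the lists thus lay in the domains above 5 Mb, with 614.44 Mb in mock and 774.52 Mb in PA+OA. At the threshold itself, 4 mock and 3 PA+OA domains of 3.04 Mb were just inside, and 2 mock and 4 PA+OA domains of 3.00 Mb just outside. Above 2 Mb the mock list had more domains than the PA+OA list (358 against 352), the reverse of the order above 3 Mb.

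**Figure D1:**
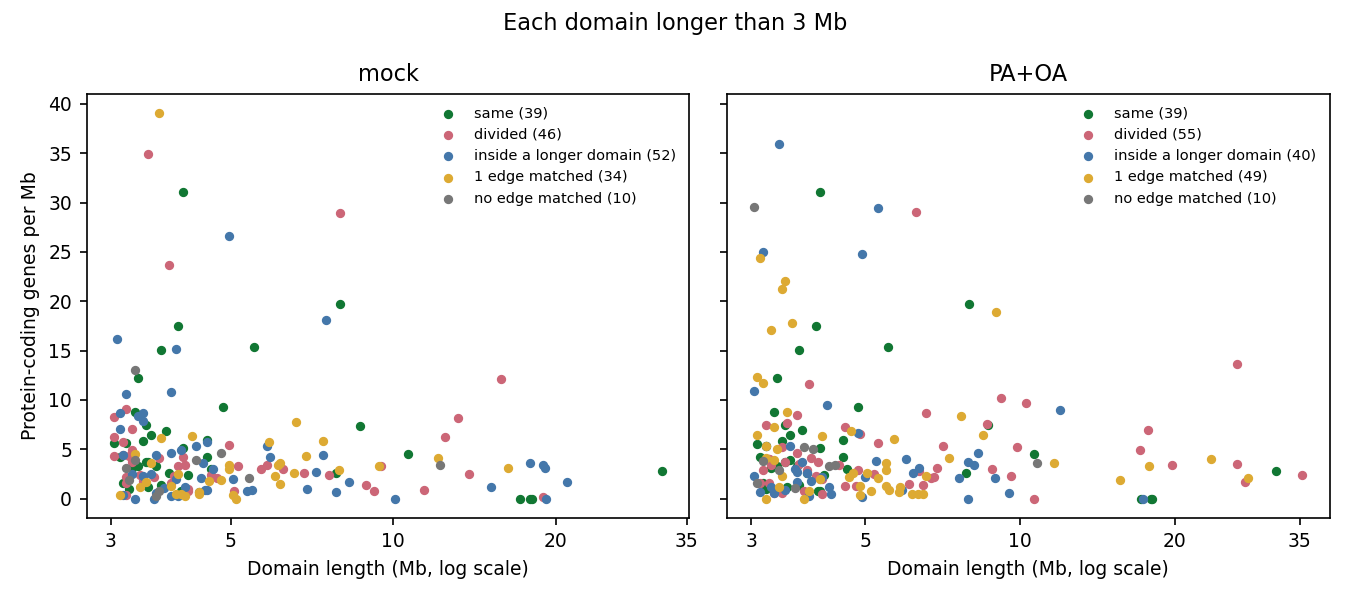
Each point is 1 of the 181 mock (left) or 193 PA+OA (right) domains longer than 3 Mb, with its length in Mb on a log scale on the x axis and its protein-coding genes per Mb on the y axis, coloured by its relation to the other list. Most points lie below 10 genes per Mb, and the domains without a protein-coding gene are found among the longest as well as the shorter ones.

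The longest domains ranged from gene-free blocks to a gene-rich stretch of chromosome 22. In the mock list the 10 longest ran from 17.16 to 31.48 Mb, and 4 of them held no protein-coding gene: 13:1-19160000, 1:124920001-143000000, 14:440001-18400000 and 15:1-17160000. The block 9:41840001-60760000 held 3. The lists hold no contact value, so whether any read was placed in the gene-free blocks could not be checked. Gene-bearing domains among the 10 longest included 9:840001-19920000 with 59 genes, among them PTPRD, a receptor phosphatase of neurons whose gene is 2299 kb long, and PLIN2. In the PA+OA list the 10 longest ran from 17.96 to 35.40 Mb, and 8 of them held genes. They included X:73000001-100800000 (27.80 Mb, 59 genes, 2.12 per Mb) with the protocadherins PCDH11X and PCDH19, and 22:17600001-43960000 (26.36 Mb, 358 genes, 13.6 per Mb).

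Long domains were concentrated on a few chromosomes. On chromosome 9 they covered 91.3% of the mock and 89.8% of the PA+OA length, and on chromosome 13 90.2% and 99.5%. The domains of chromosome 13 ended at 113640000 in mock and 111880000 in PA+OA, so its 2 shares are over different lengths. Ends also differed on other chromosomes, among them 14 and X. Chromosome 19 (75.3% and 71.8%), chromosome 21 (75.6% and 89.3%) and X (64.4% and 72.8%) were also mostly in long domains in both lists. On chromosomes 8, 11 and 20 the share was at most 9.30% in either list. By number, chromosomes 1 and 2 had the most in mock, 17 each, chromosome 1 the most in PA+OA, 23, and chromosome 20 had 1 in each list. On chromosome 13 the whole PA+OA list was 5 domains, of which 4 were long, against 19 domains, 10 of them long, in mock.

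**Figure D2:**
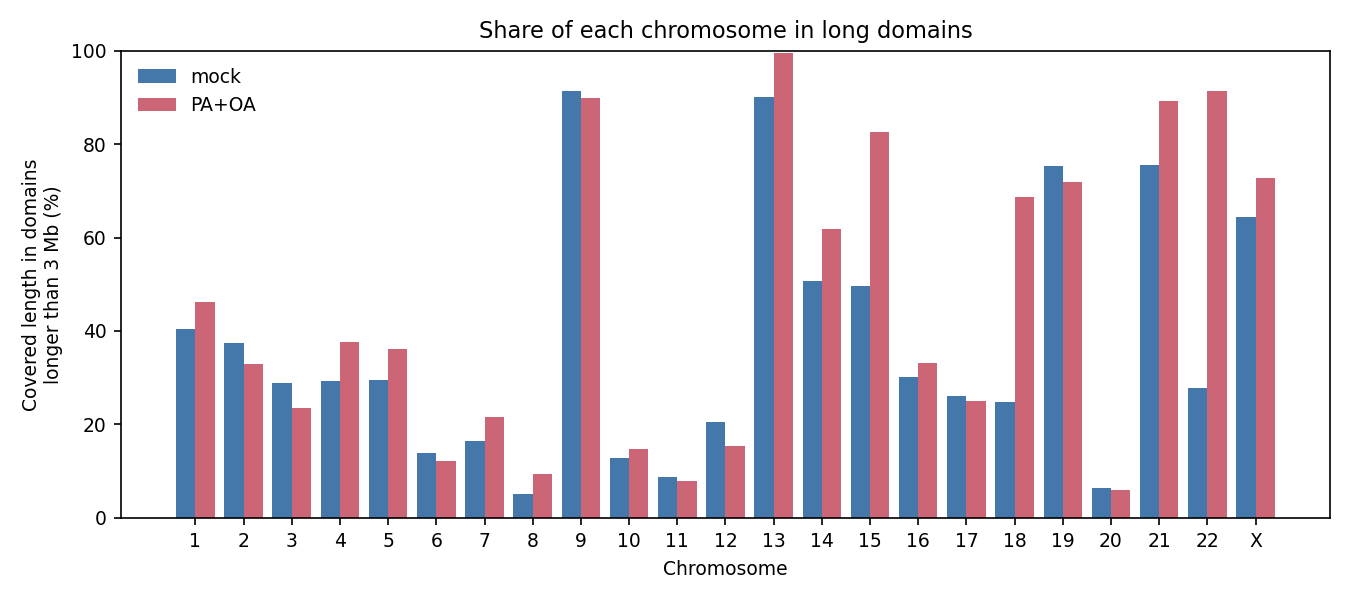
Bars give, for each chromosome, the percent of the covered length that lay in domains longer than 3 Mb in the mock (blue) and PA+OA (red) list, 1 library each. Chromosomes 9, 13, 19, 21 and X are high in both lists, while 15, 18 and 22 are higher in PA+OA.

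The largest gains in PA+OA lay on chromosomes 18, 15 and 22. Long domains covered 34.76 Mb more of chromosome 18 than in mock (24.7% of the length in mock, 68.6% in PA+OA), 33.48 Mb more of chromosome 15 (49.6% and 82.7%) and 26.16 Mb more of chromosome 22 (27.9% and 91.4%). The opposite was largest on chromosomes 2 and 3, where they covered 90.32 and 57.20 Mb in mock and 79.68 and 46.68 Mb in PA+OA. Without chromosome 18 the PA+OA share of long domains was still 4.32 percentage points above the mock share, against 5.37 points over all chromosomes. The PA+OA list ended at position 43960000 on chromosome 22, where the mock list ran to 50240000, so the 2 shares of chromosome 22 are over different lengths.

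The same long domain was seldom drawn in both lists. A domain was called the same where both edges lay within 1 bin of those of 1 domain of the other list. This held for 39 of the 181 long mock domains (21.5%, interval 16.2 to 28.1) and for the same 39 pairs among the 193 PA+OA domains (20.2%, 15.1 to 26.4), 32 of them with equal edges. Over all domains above zero length the share was 46.6% in mock and 49.0% in PA+OA, and over those of 3 Mb or less 48.6% and 51.6%. Within classes of length it was 54.4% of the mock domains of 1 Mb or less, 34.0% from 1 to 3 Mb, 25% from 3 to 5 Mb and 10.0% from 5 to 10 Mb. Of the 21 mock domains above 10 Mb, 5 had the same domain in PA+OA (23.8%, 10.6 to 45.1), and 3 of these 5 held no gene.

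The single edges of long domains were nearly as often shared as those of shorter ones. An edge of a long mock domain lay within 1 bin of a PA+OA edge in 236 of 362 cases (65.2%), and an edge of a long PA+OA domain near a mock edge in 269 of 386 (69.7%). For domains of 3 Mb or less the shares were 71.9% and 75.6%. By position, 83.4% of the length of long mock domains lay in long PA+OA domains, and 72.7% of the length of long PA+OA domains in long mock domains.

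A looser rule, reciprocal overlap of at least 80%, brought long domains nearer to the rest. It found a counterpart for 85 long mock domains (47.0%, 39.8 to 54.2) and 85 long PA+OA domains (44.0%, 37.2 to 51.1), against 53.2% of all mock and 56.0% of all PA+OA domains. The best reciprocal overlap of a long domain had a median of 77.7% in mock and 76.5% in PA+OA. It ranged from 10.3% and 15% up to equal edges.

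Long domains without the same domain fell into 4 kinds. A domain inside a longer one was counted as such whether or not an edge also matched. The counts by matched edge therefore hold only the remaining domains. In the mock list 46 had both edges in PA+OA but were divided there by further boundaries, 52 lay inside a longer PA+OA domain, 34 matched by 1 edge and 10 by none. In the PA+OA list 55 were divided in mock, 40 lay inside a longer mock domain, 49 matched by 1 edge and 10 by none. Among domains of 3 Mb or less 6.39% of mock and 8.05% of PA+OA domains were divided, against 25.4% and 28.5% of long ones, with no matching for length. Long PA+OA domains held 258 mock boundaries in all, up to 19 in 1 domain, and long mock domains held 140 PA+OA boundaries, at most 4 in 1 domain.

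Gene density by kind ranged from 3.57 to 5.12 genes per Mb in mock and from 4.64 to 5.27 in PA+OA. In mock the 39 repeated domains held 4.88 genes per Mb and the 46 divided ones 5.12, while the 52 inside a longer domain held 3.69, the 34 with 1 matched edge 3.71 and the 10 with none 3.57. In PA+OA the values were 4.88, 4.85, 4.82, 4.64 and 5.27 in the same order. The repeated domains included gene-free blocks of 18.08, 17.96 and 17.16 Mb on chromosomes 1, 14 and 15, and other kinds also included gene-free domains. Densities without these were not calculated, so the order of the kinds may depend on them. The desert share was lowest, at 32.9%, in the PA+OA domains that were divided in mock, and highest, at 53.0%, in the PA+OA domains that lay inside a longer mock domain. Long domains also sat side by side, in 27 neighbouring pairs in mock and 31 in PA+OA.

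Some long domains had no long counterpart at all. There were 30 such mock domains, 110.48 Mb in all with 3.34 genes per Mb, the longest of 5.16 Mb. In PA+OA there were 47, 189.48 Mb in all with 5.61 genes per Mb, the longest of 8.80 Mb. That longest one, 18:21600001-30400000, held 7 mock boundaries and 26 genes.

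**Figure D3:**
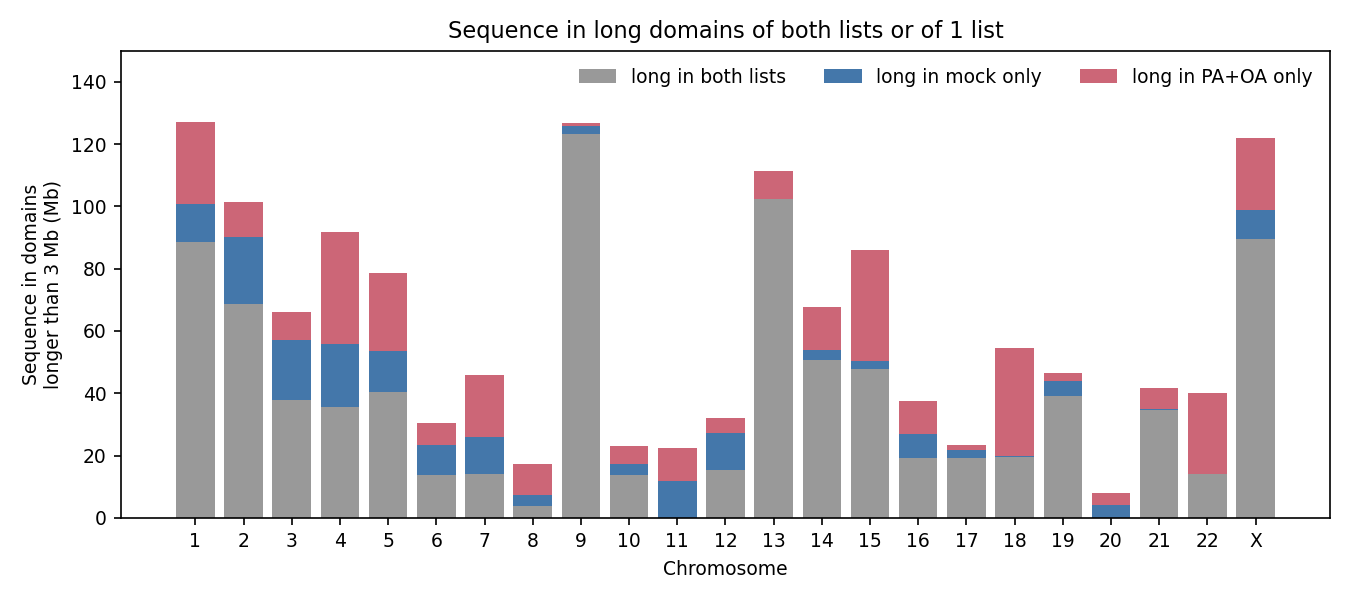
Stacked bars give the Mb of each chromosome in long domains of both lists (grey), of mock only (blue) and of PA+OA only (red). Chromosomes 9 and 13 are almost entirely grey, and chromosomes 1, 4, 15, 18 and 22 carry the tallest red segments, from 26.16 to 36.00 Mb.

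The most divided domain lay on chromosome 22. In PA+OA 22:17600001-43960000 was 1 domain of 26.36 Mb, and in mock the same edges enclosed 19 further boundaries, the largest piece measuring 3.96 Mb. It held SERPIND1, heparin cofactor II made by the liver, XBP1, a transcription factor of the unfolded protein response, RPL3, a ribosomal protein, SREBF2 and PNPLA3, a lipid droplet protein in which a variant is linked to fatty liver. SREBF2 and PNPLA3 were in a mock domain of 2.16 Mb that shared its right edge, 43960000, with the PA+OA domain. Chromosome 15 had the next, 15:43360001-61120000, which was 17.76 Mb in PA+OA with 124 genes and 12 mock boundaries inside. Of the 10 long mock domains with the most boundaries, 3:115160001-122560000 led in length among those with 4, at 7.40 Mb with 43 genes.

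The longest repeated domain lay on chromosome 13. From 45000001 to 76480000 it held 88 genes in 31.48 Mb (2.80 per Mb), and 64.2% of it was gene desert. Its listed genes were the protocadherins PCDH8, PCDH17, PCDH20 and PCDH9, and DACH1, a transcription factor of eye and limb development, and it also held MIR15A, a miRNA gene lost in many chronic lymphocytic leukaemias. Its longest gene was PCDH9 with 928 kb. Its neighbour on the right differed between the lists, since the PA+OA domain of 35.40 Mb had 4 mock boundaries inside. The mock domain of 21 Mb held 35 genes, among them SLITRK1, SLITRK5 and SLITRK6, which organise synapses, and the glypicans GPC5 and GPC6, of which GPC5 is 1469 kb long. The PA+OA domain held 85, with ZIC2, a forebrain transcription factor, as a further listed member.

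On chromosome 9 the repeated domain 99240001 to 109880000 covered 10.64 Mb with 48 genes and was 50.3% desert. It held 8 olfactory receptor genes of family OR13, with OR13C4 and OR13D1 among them, and the zinc finger genes ZNF189 and ZNF462. The domains 9:124120001-129640000 and 9:129640001-137600000, which were neighbours with equal edges in both lists, held 85 and 157 genes (15.4 and 19.7 per Mb).

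A cluster of cadherin genes on chromosome 5 was arranged differently in the lists. In PA+OA CDH18, CDH12, CDH10, CDH9 and CDH6, which encode classical type II cadherins, lay together in 5:16800001-32440000, a domain of 15.64 Mb with 30 genes of which 70.3% was gene desert. In mock CDH18 lay in a domain of 6.16 Mb, CDH12 in one of 0.64 Mb, CDH10 in one of 2.76 Mb, and CDH9 and CDH6 together in one of 6.92 Mb. Thus 3 of these 5 genes were in long domains in mock and all 5 in PA+OA.

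Long domains were poor in protein-coding genes. They held 4.31 genes per Mb (4.19 to 4.44) in mock and 4.81 (4.69 to 4.94) in PA+OA, against 7.67 and 7.64 in domains of 3 Mb or less. The median long domain held 3.12 and 3.35 genes per Mb, and the median shorter one 5.77 and 5.88. Density fell with length, to 2.75 genes per Mb above 10 Mb in mock and 3.60 in PA+OA. That class included 5 gene-free domains of 21 in mock and 5 of 22 in PA+OA, and its density without them was not calculated. In all, long mock domains held 4603 of 19821 protein-coding genes, or 23.2%, and long PA+OA domains 5897, or 29.8%, which are below their shares of length. Of all domains above zero length 12.1% in mock and 12.1% in PA+OA held no protein-coding gene, against 8 of 181 (4.42%) and 8 of 193 (4.15%) long ones.

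The lower density was also seen within most chromosomes. Within a chromosome, long domains were less dense than the shorter ones on 22 of 23 chromosomes in mock, the exception being 9, and on 20 of 23 in PA+OA, the exceptions being 9, 21 and 22. Gene-free sequence at the start of chromosomes 13, 14, 15 and 22 counts in these densities. On chromosome 22 in mock, long domains held 4.27 genes per Mb against 9.83 in shorter ones. Its only gene-bearing long domain held 15.2. Densities without such gene-free sequence were not calculated. Leaving out the 7 chromosomes 9, 13, 14, 15, 19, 21 and 22, long domains held 3.36 genes per Mb in mock and 3.75 in PA+OA, and shorter ones 7.42 and 7.46. These chromosomes were chosen for their long domains, so the choice rests on the same lengths that define the members. Chromosomes 18 and X were kept, although long domains covered 68.6% and 72.8% of their PA+OA length. Without chromosome 19, the densest, the values were 3.58 and 4.23 in long and 7.50 and 7.43 in shorter domains.

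The 5 long domains with the most genes per Mb lay on chromosomes 17 and 19 in both lists. In mock 17:40360001-44040000 held 144 genes in 3.68 Mb (39.1 per Mb), among them BRCA1, a DNA repair gene, and ACLY, which makes cytosolic acetyl-CoA for fatty acid synthesis. On chromosome 19, 46160001 to 49680000 held 34.9 per Mb in mock, with FGF21, a hormone of the fasted liver. The PA+OA counterpart of the latter, 46280001 to 49680000, held 35.9 genes per Mb, the densest long domain of that list. The densest domain with equal edges was 19:49680001-53760000 with 127 genes (31.1 per Mb), of which 40 were zinc finger genes named ZNF.

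**Figure D4:**
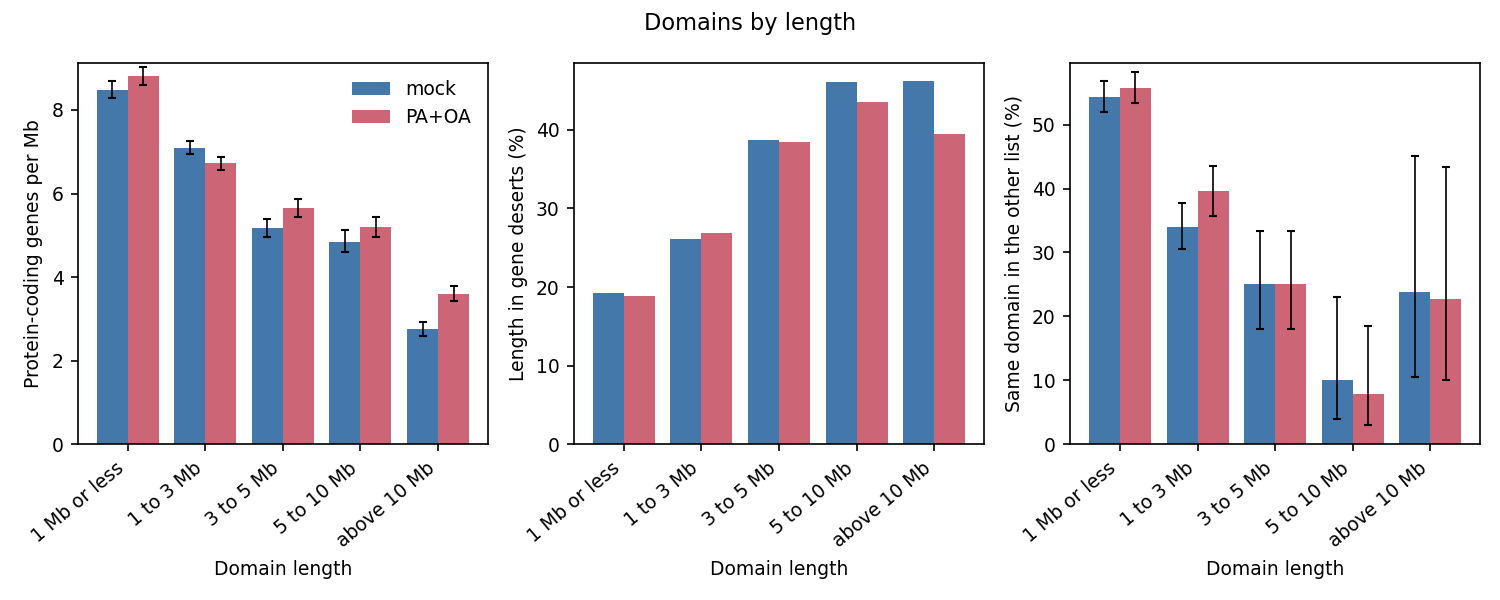
Bars give, by class of domain length, the protein-coding genes per Mb (left), the percent of length in gene deserts (middle) and the percent of domains with the same domain in the other list (right), for mock (blue) and PA+OA (red), with 95% counting intervals where drawn. Density falls from 8.48 and 8.82 genes per Mb at 1 Mb or less to 2.75 and 3.60 above 10 Mb, a class with 5 gene-free domains in each list.

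Other gene types were also thinner in long domains, but unequally so. In mock, long domains held 4.50 lncRNA genes per Mb against 6.64 in shorter ones, 3.98 pseudogenes against 5.47, 0.484 miRNA genes against 0.700 and 0.0384 tRNA genes against 0.189. In PA+OA the values were 4.89 against 6.53, 4.13 against 5.51, 0.511 against 0.697, and 0.0457 against 0.198. Of the 69 protein-coding genes of at least 1000 kb, 35 lay in long domains in each list (50.7%), against 35.4% and 40.8% of the covered length. Of the 314 of at least 500 kb, 112 (35.7%) did in mock and 124 (39.5%) in PA+OA, close to those shares of length.

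Promoter composition hardly differed. The median GC content of the 300-base promoter windows was 62.3% in long mock domains and 62.7% in shorter ones, and 62.7% in both classes of PA+OA domains. A ratio of observed to chance-level CG dinucleotides of at least 0.6 was found in 64.2% of promoters in long and 66.3% in shorter mock domains, and in 65.1% and 66.0% in PA+OA. Of 19821 protein-coding genes 15813 had a promoter entry.

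Long domains overlapped gene deserts more than shorter ones did. A desert was a gap of at least 500 kb between neighbouring protein-coding genes, and there were 696 deserts with 912.12 Mb in all. The stretches before the first and after the last gene of a chromosome were left out. Gene-free blocks there, such as 13:1-19160000 in mock and 15:1-17160000 in both lists, therefore count as 0% desert. Deserts covered 43% of the length of long mock domains and 40.3% of that of long PA+OA domains, against 23.3% and 23.4% in shorter domains. The median long domain was 38.4% desert (32.6 to 44.8) in mock and 37.8% (33.4 to 42.9) in PA+OA. A desert touched 146 of 181 long mock and 161 of 193 long PA+OA domains, and made up at least 50% of 69 and 67. Over all domains above zero length, it touched 912 of 2543 in mock and 874 of 2416 in PA+OA. It made up at least 50% of 540 and 510 of these. A longer domain is more likely to be touched by its length alone. From the other side, 50.3% of the desert length was in long mock domains and 54.1% in long PA+OA domains, and 237 and 277 deserts lay wholly inside one. The 99 deserts of at least 2 Mb were in long domains for 64.9% of their length in mock and 65.1% in PA+OA.

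The gene-poorest shared domains that held any gene lay on chromosomes 1, 2, 5 and 7. With equal edges, 1:103720001-107760000 held 3 genes in 4.04 Mb and 5:103160001-107240000 held 3 in 4.08 Mb, and 7:51760001-55280000 held 4 in 3.52 Mb. On chromosome 2 the domain from 138480001, which ended at 141720000 in mock and 141680000 in PA+OA, held 3 genes and the middle of LRP1B, a very long gene of the LDL receptor family at a common fragile site.

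The longest gene-free stretch of a chromosome lay at least partly in a long domain on most but not all chromosomes. No centromere table was used here, so the longest stretch of each chromosome without any gene record stood in for the centromere. On chromosomes 13, 14, 15, 21 and 22 this stretch ran from the chromosome's first base into the short arm. For these 5 chromosomes it therefore need not be the centromere. It was overlapped by 15 long mock domains (8.29%, 5.09 to 13.2) and 15 long PA+OA domains (7.77%, 4.77 to 12.4), against 4.21% of all mock and 4.68% of all PA+OA domains. Of domains above 10 Mb, 7 of 21 and 6 of 22 overlapped it. On chromosomes 13, 19 and 21 it lay wholly in a long domain in both lists, and on chromosome 9 to 99.6% in mock and 97.9% in PA+OA. A separate gene-free stretch of chromosome 22, from 12815794 to 15264488, lay wholly in a long PA+OA domain and in no long mock domain.

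On other chromosomes the longest gene-free stretch was cut into short domains. On chromosomes 2, 3, 6, 8, 10, 11 and 20 no part of it was in a long domain in either list. On chromosome 11 its 4.17 Mb crossed 12 mock and 16 PA+OA domains. On chromosome 4 it lay wholly in a long domain in PA+OA only, and on chromosome 5 28.6% of it in mock only. The 5 longest domains with equal edges in both lists included 3 such gene-free blocks, on chromosomes 1, 14 and 15, so these matches carry no gene. Whether any read was placed in these blocks could not be checked. Leaving out the long domains over such stretches, the share with the same domain was 21.7% in mock and 20.2% in PA+OA.

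Sequence long in PA+OA only was richer in genes than sequence long in both lists, while for sequence long in mock only the intervals overlapped. The 890.32 Mb in long domains of both lists held 4.26 genes per Mb (4.12 to 4.39) and was 44.1% desert. The 176.96 Mb long in mock only held 4.60 (4.29 to 4.93) and was 37.1% desert, and the 333.96 Mb long in PA+OA only held 6.22 (5.96 to 6.50) and was 30.0% desert. The 1603.08 Mb long in neither held 7.96 and was 21.9% desert. Sequence long in both lists included gene-free blocks, such as those of 18.08, 17.96 and 17.16 Mb on chromosomes 1, 14 and 15. Its density without them was not calculated. By gene, 3789 protein-coding genes were in long domains of both lists, which is 82.3% of the mock and 64.3% of the PA+OA genes, while 814 were in mock only and 2108 in PA+OA only. Chromosomes 22 (298) and 15 (294) held the most of the latter. Of the 2108 genes, 2078 lay in the 333.96 Mb, since sequence that only 1 list covered, 12.48 Mb in all, was left out of the densities.

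The gene lists differed in how often their members lay in long domains. Of 63 neuronal adhesion and synapse genes, 39 (61.9%) were in long mock and 32 (50.8%) in long PA+OA domains, with 27 in both, among them NRXN3, a presynaptic neurexin in a domain of 4.08 Mb in both lists. Of 35 cadherins and protocadherins, 17 (48.6%) and 22 (62.9%) were in long domains, and of 29 large genes of common fragile sites, 15 (51.7%) and 19 (65.5%). Developmental transcription factors numbered 30 and 32 of 77 (39.0% and 41.6%). The shares of all protein-coding genes were 23.2% and 29.8%, and were not tested against those of the lists. The lists also differed in gene length. The median gene measured 828 kb in the neuronal and 1113 kb in the fragile-site list, 135 kb in the cadherin list and 23 kb among the developmental factors. Of all genes of at least 500 kb, 35.7% and 39.5% were in long domains, and of those of at least 1000 kb 50.7% in each list. The part of gene length in the shares of the lists was not tested.

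**Figure D5:**
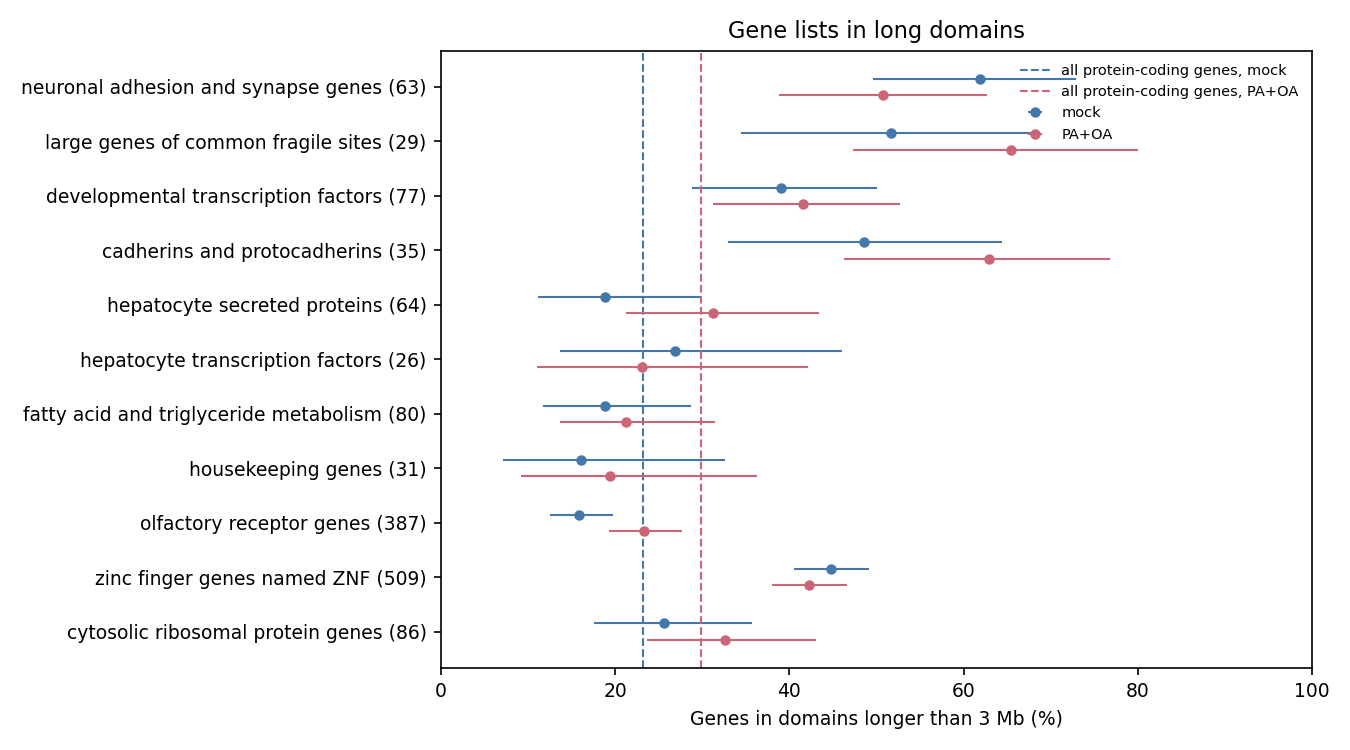
Points give the percent of each gene list (number of matched genes in brackets) in domains longer than 3 Mb in mock (blue) and PA+OA (red), with Wilson 95% intervals, and dashed lines the percent of all protein-coding genes, 23.2% and 29.8%. Neuronal, fragile-site and cadherin genes lie to the right of the lines, and the metabolic and housekeeping lists near or to the left of them.

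The share of zinc finger genes depended on a few chromosomes. Of 509 genes named ZNF, 228 (44.8%) were in long mock and 215 (42.2%) in long PA+OA domains. Without the 7 chromosomes named above, 34 of 237 (14.3%) and 37 of 237 (15.6%) were, against 14% and 17.5% of all protein-coding genes there. Those chromosomes were chosen for their long domains, so some fall in both shares follows from that choice. The neuronal genes stayed at 31 of 55 (56.4%) and 24 of 55 (43.6%) under the same restriction.

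Liver and lipid genes were near or below the share of all genes. Of 80 genes of fatty acid and triglyceride metabolism, 15 (18.8%) were in long mock and 17 (21.2%) in long PA+OA domains, 12 of them in both. They included INSIG2, CD36, SLC27A2, SLC27A4, AGPAT2, PLIN1, PLIN2, LIPE, ACADM and TM6SF2. ACLY, INSIG1 and LPIN1 were in a long domain in mock only, and SREBF2, LPIN2, PNPLA3, LIPC and ACAA2 in PA+OA only. CD36 lay in 7:78320001-81480000 (3.16 Mb) and ACADM in 1:75240001-78680000 (3.44 Mb), with equal edges in both lists. PLIN2 lay in domains of 19.08 Mb in mock and 26.44 Mb in PA+OA.

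Of 64 genes of hepatocyte secreted proteins, 12 (18.8%) were in long mock and 20 (31.2%) in long PA+OA domains. The 9 in PA+OA only included TF, CP, SERPINA7, SERPINC1, SERPIND1, APOE, APOC1 and APOC2, and HP, which encodes haptoglobin, was in mock only. APOE, the apolipoprotein that carries remnant lipoproteins to the liver, lay at 19:44905796-44909393 in a mock domain of 1.32 Mb (44840001 to 46160000) and in a PA+OA domain of 6.28 Mb (39880001 to 46160000). The right edge was thus the same and the left edge of the mock domain was not found in PA+OA. Hepatocyte transcription factors numbered 7 and 6 of 26, and housekeeping genes 5 and 6 of 31.

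Among gene families of many copies, 61 (15.8%) and 90 (23.3%) of 387 olfactory receptor genes were in long domains, and 22 (25.6%) and 28 (32.6%) of 86 cytosolic ribosomal protein genes. Of 1911 miRNA genes 517 (27.1%) were in long mock and 626 (32.8%) in long PA+OA domains, 437 in both. The domain 19:49680001-53760000 held 56 of them, the most of any long PA+OA domain. Its right edge, 53760000, fell near the end of the primate chromosome 19 miRNA cluster, from MIR512-1 to MIR519A2 (53666679 to 53762430). By position 44 of the 46 cluster genes lay before the edge and 2 after it. The part beyond the edge is shorter than 1 bin of 40 kb, so a division of the cluster cannot be told from an edge past its end. The X chromosome domain 145960001 to 150480000, also with equal edges, held 23.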

How the data were processed

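Hi-C of HepG2 cells gave 1 list of domains per group, mock and PA+OA. The authors' deposited lists give positions in base pairs (chromosome, first and last edge), with no contact value or other measurement. FastQC and HiC-Pro were used with hg38, per the submitters' processing notes. Tool versions, the domain caller, the matrix normalization and the depth were not given in the sources used here.

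Domains above 3 Mb (end minus start) were taken as long; the members and gene lists were chosen with earlier results of these data known. A gene counted for the domain holding the midpoint of its RefSeq record (GRCh38.p14). The gene table gave 19821 protein-coding genes on 23 chromosomes after 679 records on scaffolds, 153 of them protein-coding, were left out. Named domains were the 10 longest of each list, the 5 longest with equal edges, the 5 longest without the same domain, the 5 with the most and the fewest genes per Mb and the 3 on each side of the threshold; further domains and genes were named after their values were seen. A few members of the gene lists are not reported here by name. No test across libraries was made. Intervals were Wilson for shares, Poisson for densities and binomial ranks for medians. The calculations were tested on simulated lists with known answers (Python 3.11.15, pandas 2.3.3, numpy 2.4.6, scipy 1.17.1).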

Additional observations from a re-analysis of the deposited data

How the results depend on the processing

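With 1 library per group, no library could be left out, and no paired analysis was possible because the groups have no replicates. Each chromosome was left out in turn instead. A count or share of length was taken as the same within 1.5 times its value, and other values within their counting interval. At a threshold of 2 Mb there were 358 mock and 352 PA+OA domains, the reverse of the order at 3 Mb, and at 5 Mb 61 and 73, which covered 20.4% and 25.8% of the length. The share with the same domain was 14.8% and 12.3% at 5 Mb, 47.0% and 44.0% by reciprocal overlap of 80%, and 33.1% and 30.1% by 90%. The share of domains over the longest gene-free stretch was 16.4% and 15.1% at 5 Mb.

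The share of protein-coding genes in long domains was 36.2% in mock and 41.0% in PA+OA at 2 Mb, 11.4% and 16.9% at 5 Mb, 22.5% and 28.5% on autosomes, 14% and 17.5% without the 7 chromosomes, 22.1% and 29.0% without domains over the stand-in for centromeres, 22.1% and 28.5% without those over any gene-free stretch of 2 Mb, and 25.5% and 32.1% with all gene records. Leaving out 1 chromosome gave 19.9% to 24.7% and 27.2% to 31.6%. Density in long domains was 4.80 and 5.04 genes per Mb at 2 Mb, 3.68 and 4.33 at 5 Mb, 3.36 and 3.75 without the 7 chromosomes, 4.81 and 5.43 without domains over the stand-in, 4.83 and 5.47 without those over any gene-free stretch, and 14 and 15.3 with all gene records. Leaving out 1 chromosome gave 3.58 to 4.50 and 4.23 to 5.02. The median desert share was 31.2% and 32.2% at 2 Mb, 48.3% in mock at 5 Mb, 23.4% and 25.3% for gaps of 1 Mb, 47.8% and 46.4% for gaps of 250 kb, and 0 in both lists where all gene records bounded a desert. The alternatives on gene-free stretches of 2 Mb and on the gene lists were chosen after seeing the data. Depth and the domain caller limit every length given here, and their part in the long domains was not tested.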
